A study of Mus musculus with 13 samples.

Results

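The initiation factors (eIFs) and elongation factors (eEFs) of translation were picked by gene symbol from ribosome footprint tables of mouse fibroblasts. Every symbol that starts with Eif1 to Eif6 was taken, without the Eif2ak kinases and the Eif4ebp cap-binding inhibitors, and every symbol that starts with Eef1 or Eef2, without Eef1e1 and Eef2k. Of 22406 symbols in the tables, 56 matched. A mean of at least 2 TPM (footprints per length of coding sequence, scaled so that every library has the same sum) was met by 54 of them in MEFs, among 10432 expressed genes, and by 51 in NIH3T3 cells, among 10117. Eif4e1b and Eef1a2 missed it in both tables. In MEFs the closest symbols on either side were Eif4e3 at a mean of 5.90 TPM and Eef1a2 at 0.192. Eif4e3, Eif2s3y and Eif4g3 also missed it in NIH3T3 cells, where Eif5a2 was just inside at 8.09 TPM and Eif4g3 just outside at 1.05. The 54 factors of MEFs were grouped as eIF2 (6 genes), eIF2B (5), eIF3 (14), eIF4 (12), the other initiation factors eIF1, eIF5 and eIF6 with their paralogs (10), eEF (5) and the methyltransferases of elongation factors (2).

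Footprints came from 3 fibroblast cultures. Mouse embryonic fibroblasts (MEFs) were PERK WT or PERK knockout (PERK −/−), and each genotype was sampled without thapsigargin (control) and after 1, 2, 5 and 8 h in 1 μM thapsigargin (Tg), a blocker of the calcium pump of the endoplasmic reticulum (ER). NIH3T3 cells, an established mouse fibroblast line, were sampled as control and after 2 and 7 h in the lower dose of 0.2 μM Tg. All 13 conditions were 1 library each, so replicate error is unknown for all values, no test between conditions was made, and a change was called only at 2-fold or more. How the MEFs of either genotype were derived is not given in the sources used here, and genotype and culture cannot be told apart. TPM values are shares of the footprints of a library, and the total amount of translation per cell was not part of these tables. More footprints on a gene can come from more mRNA or from more ribosomes on each mRNA, and these cannot be told apart here.

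Translation starts when eIF2, bound to GTP and the initiator tRNA, loads the small ribosomal subunit together with eIF1, eIF1A, eIF3 and eIF5, while the cap-binding complex eIF4F and its helicase eIF4A bring in the mRNA. eIF2 leaves as eIF2-GDP and is recharged by its exchange factor eIF2B. In ER stress the kinase PERK phosphorylates the α subunit of eIF2, which then binds eIF2B as an inhibitor, so that initiation on most mRNAs drops while that on a few, such as Atf4, goes up. During elongation eEF1A delivers aminoacyl-tRNAs, the eEF1B subunits reload eEF1A with GTP, and eEF2 moves the ribosome by a codon.

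The site on which PERK acts lies in Eif2s1, which encodes eIF2α (chromosome 12 of mm10, 78862072 to 78887010), and is shown because the level of this substrate is followed below. Its codon, in capitals, is that of serine 51 of the mature protein and codon 52 when the start codon is counted as 1, within coding bases 133 to 177 of the GENCODE coding sequence of GRCm38, 5′ to 3′.
Eif2s1: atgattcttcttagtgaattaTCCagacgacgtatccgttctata
The γ subunit of eIF2 has an X-linked gene, Eif2s3x (chromosome X, 94188709 to 94212651), and a Y-linked copy, Eif2s3y (chromosome Y, 1010562 to 1049134). A stretch of both is shown since both copies add to the footprints of the γ subunit. Coding bases 601 to 660 follow, with the 14 bases that differ between the copies in capitals.
Eif2s3x: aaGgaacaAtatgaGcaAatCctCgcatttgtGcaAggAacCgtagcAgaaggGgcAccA
Eif2s3y: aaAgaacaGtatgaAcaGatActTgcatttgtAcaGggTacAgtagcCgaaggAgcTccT
Over the full 1416 coding bases the copies differed at 194 (86.3% identity), and the longest identical run in the clipped coding sequence was 34 nt, so that most footprints could be assigned to 1 of them.

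The libraries held 2525029 (WT MEFs, 2 h) to 14799515 (PERK −/− MEFs, 2 h) expected counts, so that 3 counts, the limit that a count of 0 allows, stood for 1.19 CPM (counts scaled to the library total) in the former and 0.203 in the latter. All 10 fibroblast markers had footprints in every library, with Col1a1 at 269 to 2207 TPM, although Pdgfra stayed at 0.27 to 2.79 TPM in WT MEFs and Col3a1 at 0.64 to 1.67 TPM in NIH3T3 cells. Of the epithelial, blood and endothelial markers, Krt18 reached 16.01 TPM in WT MEFs, Krt8 15.6 TPM in NIH3T3 cells and the others at most 5.14 TPM. Footprints on Eif2ak3, which encodes PERK, were at 6.03 to 15.7 TPM in WT MEFs and 5.21 to 17.2 TPM in PERK −/− MEFs, with the higher TPM in PERK −/− MEFs without Tg and at 5 and 8 h. Its counts per library total were lower in PERK −/− MEFs at every matched time, at 7.64 to 19.1 CPM against 14.4 to 33.3 CPM in WT MEFs. The units thus went different ways, and with the deleted part not given in the sources used here, the genotype was left unchecked. PERK −/− is the name the labels give, and all directions given for these MEFs rest on that label.

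Translation factors carried more footprints per length than most genes. The median over the 54 factors, of the mean over MEF libraries, was 219 TPM, against 20.9 TPM for all expressed genes, and 49 of the 54 were above the latter. Eef1a1, which carries aminoacyl-tRNAs to the ribosome, had the highest level without Tg, with 12067 TPM in WT MEFs, 10526 in PERK −/− MEFs and 6198 in NIH3T3 cells. Eif5a, which helps the ribosome past difficult peptide bonds, followed with 2811, 2314 and 2563 TPM, and the helicase Eif4a1 with 1853, 1787 and 2027 TPM. The 12 eIF3 subunits other than eIF3j lay within a 2.42-fold range in untreated WT MEFs (192 TPM for Eif3d to 463 for Eif3e), 3.67-fold in PERK −/− MEFs (137 for Eif3m to 503 for Eif3h) and 2.89-fold in NIH3T3 cells (149.98 for Eif3a to 433 for Eif3l). The 5 eIF2B subunits were lower, at 24.9 (Eif2b4) to 87.3 TPM (Eif2b1) in untreated WT MEFs.

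Together the factors took 4.03% of all footprints in untreated WT MEFs (95% exact binomial interval 4.02 to 4.04, counting error only), 3.45% in untreated PERK −/− MEFs and 3.16% in untreated NIH3T3 cells. In WT MEFs the share was lower at each later time, with 3.88%, 3.83%, 3.78% and 3.70% after 1, 2, 5 and 8 h. PERK −/− MEFs had a higher share early, at 4.11% and 4.12% at 1 and 2 h, and lower late, at 3.38% and 2.79% at 5 and 8 h. NIH3T3 cells had 3.18% at 2 h and 3.80% at 7 h. Eef1a1 alone made up 1.70% of the footprints of untreated WT MEFs and 1.49% at 8 h, and 1.48%, 1.76%, 1.70%, 1.41% and 1.11% in PERK −/− MEFs from control to 8 h.

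Changes against the own control were small for most factors. At any time, 5 of 54 (9.26%) changed at least 2-fold in WT MEFs, where 17.3% of all expressed genes did, 5 of 54 in PERK −/− MEFs (16.5% of all) and 5 of 51 in NIH3T3 cells (20.2% of all). These were Eif1, Eif1ax, Eef1b2, Eif3j1 and Eif3j2 in WT MEFs, Eif1ad, Eif1b, Eef1b2, Eif3j1 and Eif3j2 in PERK −/− MEFs, and Eif2b3, Eif4a2, Eif5a2, Eef2kmt and Eif3j2 in NIH3T3 cells. Eif3j1 and Eif3j2 are copies whose footprints cannot be told apart, and 3, 3 and 4 called factors were left without them. In PERK −/− MEFs the calls of Eif1b and Eif3j1 rested on the 5 h library, without which 3 factors were called. In NIH3T3 cells those of Eif4a2 and Eif3j2 rested on the 2 h library, and 3 were called without it. At 1.5-fold, 16, 14 and 17 factors had changed at any time in WT MEFs, PERK −/− MEFs and NIH3T3 cells, against 46.4%, 47.7% and 50.3% of all genes.

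At 1 and 2 h the median changes lay on different sides of 0 in the genotypes, a difference that 1 library each could not test. At 8 h both medians were below 0. In WT MEFs the median log2 change of the 54 factors was −0.04, −0.02, −0.08 and −0.07 at 1, 2, 5 and 8 h. All genes had 0, 0, 0.00 and 0.01. At 8 h the factors minus all genes gave −0.08, but −0.15 with a floor of 1 TPM and −0.17 with TMM scaling of the counts. Of the factors, 24 were below 0 at every time (27.5% of all genes) and 15 above 0 (29.7%). In PERK −/− MEFs the median was 0.15 at 1 h and 0.20 at 2 h, while all genes had −0.06 and −0.11, and 40 of 54 factors were above 0 at 1 h and 40 at 2 h (35.8% and 32.7% of all genes). At 8 h it was −0.11 against 0.04 for all genes, with 40 of 54 below 0 (40.1% of all genes). The change in PERK −/− MEFs minus that in WT MEFs, over the 52 factors other than eIF3j, had a median of 0.23 at 1 h and 0.23 at 2 h, and of −0.09 and −0.19 over all genes. It was above 0 for 39 factors at 1 h (40.0% of all genes) and 38 at 2 h (35.8%), and for 29 at 5 h (43.7%) and 23 at 8 h (48.9%). Differences of at least 2-fold towards PERK −/− MEFs were seen for Eif1 and Eef1b2 at 1 h (3.60% of all genes). At 2 h they were seen for Eif1, Eif1ax, Eif4e and Eef1b2 (5.13%), and at 5 and 8 h for no factor. Towards WT MEFs, differences as large were seen for Eif5a2 at 1 h and for no factor at 2 h. At 5 h they were seen for Eif1ad and Eif1b, and at 8 h for Eif1ad and Eef2kmt. All factors that differed towards WT MEFs had under 100 counts in at least 1 library. The share of all genes is not given for this direction, nor for 5 and 8 h towards PERK −/− MEFs. How many factors were called there was therefore not read as a result.

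**Figure D1:**
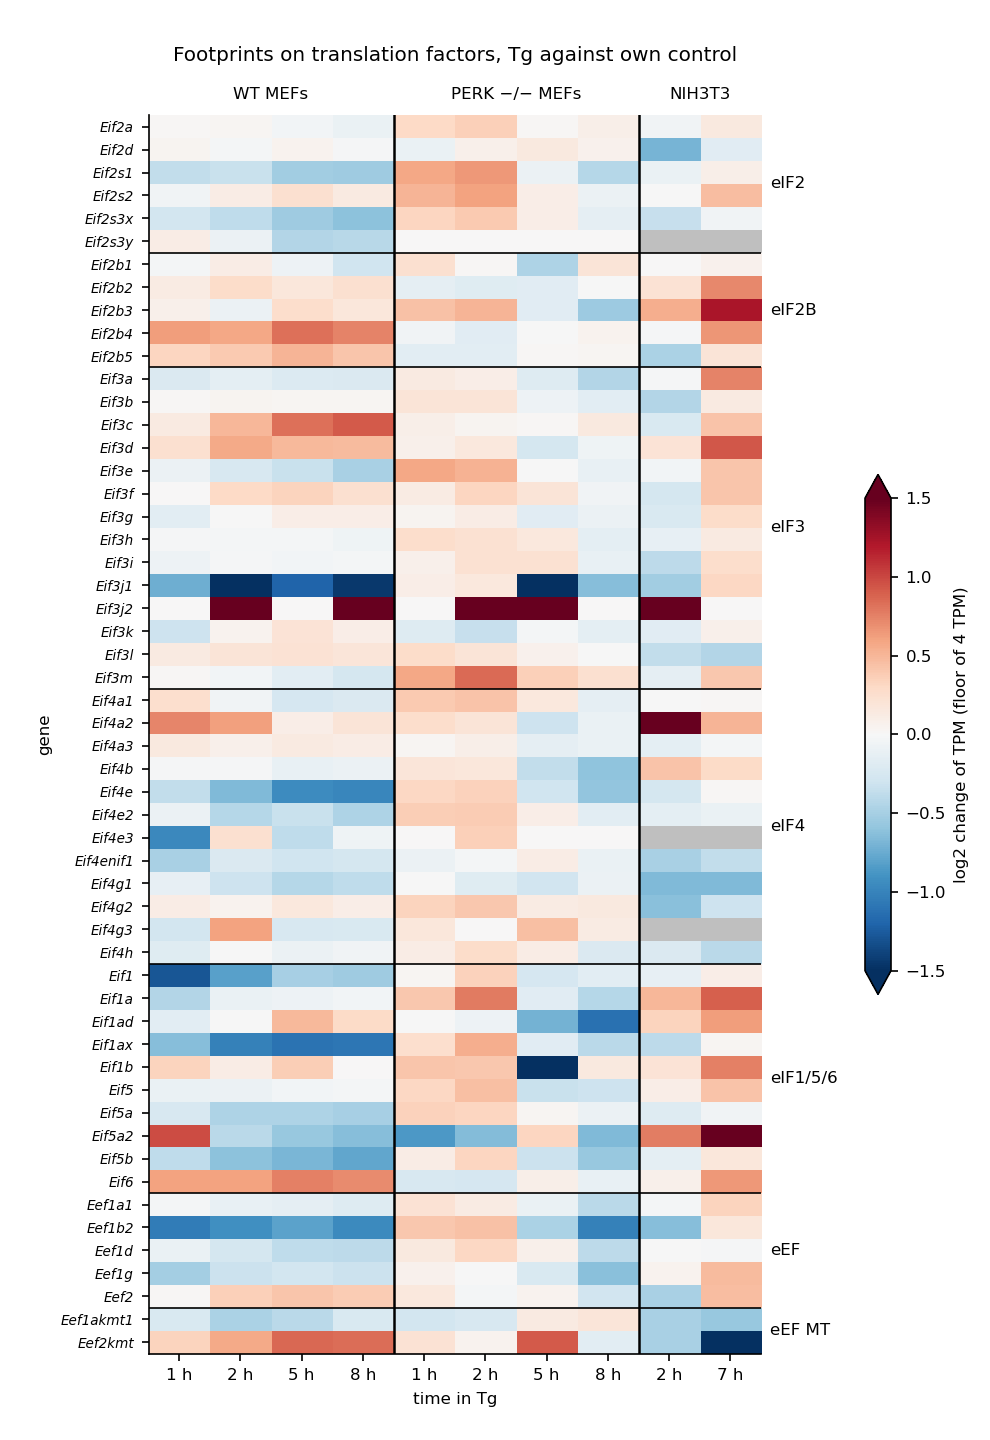
Log2 change of TPM (values under 4 TPM raised to 4) of each of the 54 factors, in rows by group, for every Tg library against its own control, in columns. Red is higher and blue lower with Tg, colours end at 1.5, grey marks factors not expressed in NIH3T3 cells, and eEF MT are the methyltransferases. The Eif3j1 and Eif3j2 rows reflect how reads were divided between 2 copies that share all stretches of 30 nt, and most other rows are pale, with red prevailing at 1 and 2 h in PERK −/− MEFs, where 40 of 54 factors were above 0.

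As a scale for these values, neighbouring Tg times were compared, which differ in time as well as in library. Over the 52 factors without eIF3j the SD of the log2 difference was 0.35, 0.23 and 0.10 for the steps from 1 to 2, 2 to 5 and 5 to 8 h in WT MEFs, and 0.14, 0.53 and 0.46 in PERK −/− MEFs. NIH3T3 cells had 0.43 from 2 to 7 h. The library of PERK −/− MEFs at 5 h is the one both large steps share.

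**Figure D2:**
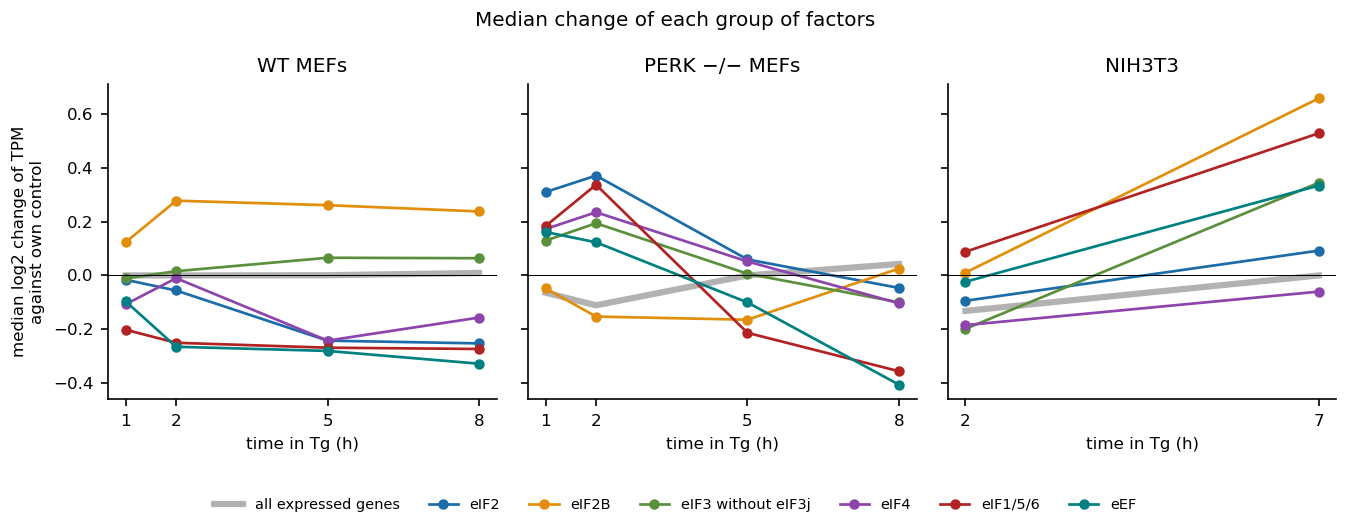
Median log2 change of TPM against the own control (y axis) by time in Tg (x axis, h) for the groups of factors and for all expressed genes (thick grey line), with 1 panel per culture. In WT MEFs the eIF2B median lay above 0 (0.24 at 8 h) and the eEF median below (−0.33), in PERK −/− MEFs the medians of eIF2, eIF3, eIF4, eIF1/5/6 and eEF lay above 0 at 1 and 2 h, and in NIH3T3 cells the eIF2B median was 0.66 at 7 h.

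eIF2, the target of PERK, had lower values of its α subunit with Tg in WT MEFs, and higher ones at 1 and 2 h in PERK −/− MEFs. Eif2s1 was at 354 TPM in untreated WT MEFs and at 275, 281, 247 and 245 TPM at 1, 2, 5 and 8 h. The same times gave 246 (control), 366, 385, 230.3 and 183 TPM in PERK −/− MEFs. All 4 Tg values were thus below the control in WT MEFs, while those at 1 and 2 h were above it and those at 5 and 8 h below it in PERK −/− MEFs. The log2 change at 2 h was −0.33 in WT MEFs, with a 95% counting interval of −0.45 to −0.21 for the counts per library total, and 0.65 in PERK −/− MEFs (0.64 to 0.81). At 8 h it was −0.53 (−0.60 to −0.46) and −0.43 (−0.55 to −0.33). With the trend on GC content removed, Eif2s1 in WT MEFs was at −0.07 at 2 h and −0.16 at 8 h, and in PERK −/− MEFs at 0.45 and −0.48. NIH3T3 cells had 366 (control), 343 (2 h) and 390.5 TPM (7 h), a change of −0.09 and 0.09, and the former was above 0 (0.03, −0.08 to 0.13) in counts per library total.

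The β subunit, Eif2s2, did not share the lower values of WT MEFs. It was at 440.3 TPM in the control and 424, 476, 521 and 484 TPM with Tg in WT MEFs, and at 360.1 and 513, 545, 386 and 338 TPM in PERK −/− MEFs. Eif2s3x, the X-linked γ subunit, ran like Eif2s1, with 283 TPM in untreated WT MEFs, 233, 217, 196 and 185 TPM with Tg, and a log2 change of −0.61 (−0.68 to −0.55) at 8 h, which was −0.36 with the trend on GC content removed. PERK −/− MEFs had 209 (control), 261, 273, 224 and 189.6 TPM over the same times. None of these subunits reached 2-fold in any library.

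The Y-linked γ copy, Eif2s3y, was at 50.6, 54.6, 47.7, 37.2 and 38.1 TPM in WT MEFs from control to 8 h. It was listed at 0 in the control and at 1 and 2 h of PERK −/− MEFs and at 0.65 and 0.10 TPM at 5 and 8 h, and at 0.25, 0 and 0 TPM in NIH3T3 cells. The control value of WT MEFs was at least 160-fold higher than the limit of 3 counts in the control of PERK −/− MEFs. 3 other Y-linked genes went the same way, with Ddx3y at 33.8 to 45.2 TPM, Uty at 5.91 to 11.1 TPM and Kdm5d at 2.71 to 5.60 TPM in WT MEFs, and none above 0.58 TPM elsewhere. WT and PERK −/− MEFs hence differed in Y-linked footprints as well as in PERK, and in any difference between the genotypes these cannot be told apart. The γ subunit summed over both copies was at 333 TPM in untreated WT MEFs, 209 in PERK −/− MEFs and 253 in NIH3T3 cells.

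2 further genes of this group carry eIF2 in their names but are no subunits. Eif2a, which can bind initiator tRNA in alternative initiation, was at 66.2 to 72.3 TPM in all WT MEF libraries and reached 85.6 and 88.8 TPM at 1 and 2 h in PERK −/− MEFs, from 69.5 TPM. Eif2d, which acts on ribosome recycling and reinitiation, had 17.2 to 18.2 TPM in WT MEFs and 19.1 to 22.6 TPM in PERK −/− MEFs, with a counting interval around 0 at every time in WT MEFs.

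eIF2B, the exchange factor that phosphorylated eIF2 inhibits, was higher with Tg in WT MEFs for some of its subunits. Eif2b4, the regulatory δ subunit, was at 24.9 TPM in the control and at 38.4, 37.3, 44.1 and 41.8 TPM with Tg, a log2 change of 0.58 to 0.82. At 5 h its interval was 0.64 to 1.03, and with the trend on GC content removed its changes were 0.43 to 0.63. Eif2b5, the catalytic ε subunit, was at 36.1 TPM and then 45.2, 47.3, 51.3 and 48.3 TPM. With the trend on GC content removed, the log2 change of Eif2b5 was 0.31 to 0.43. In PERK −/− MEFs neither departed from its control by as much, with Eif2b4 at 29.2 TPM in the control and 28.3, 26.1, 29.2 and 30.4 TPM with Tg, and Eif2b5 at 44.2 and then 39.6, 39.7, 44.6 and 44.95 TPM. All Tg values of both subunits in WT MEFs were above the control, and in PERK −/− MEFs they lay on either side of it. The eIF2B median was 0.12 to 0.28 on the log2 scale in WT MEFs, and −0.05 and −0.15 at 1 and 2 h in PERK −/− MEFs, where it turned to 0.07 and 0.03 with TMM scaling of the counts.

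The other subunits varied in their own ways. Eif2b2, the β subunit, was at 76.8 TPM in untreated WT MEFs and 83.6 to 93.1 TPM with Tg, and at 54.9 TPM in untreated PERK −/− MEFs and 48.3 to 54.9 TPM with Tg, and its sign turned in both genotypes under some scalings. Eif2b3, the γ subunit and partner of Eif2b5 in catalysis, stayed at 52.5 to 66.8 TPM in WT MEFs, against 55.7 in the control. Its course in PERK −/− MEFs was 48.4 (control), 65.6, 69.0, 43.0 and 33.2 TPM. In NIH3T3 cells Eif2b3 had 33.8 (control), 49.2 (2 h) and 79.0 TPM (7 h), and it rose at least 2-fold at 7 h (7.01% of all genes did), by 1.22 on the log2 scale (1.08 to 1.41). Eif2b1, the α subunit that senses phosphorylated eIF2, showed no steady direction, with 87.3 TPM in the control and 71.3 to 94.2 TPM with Tg in WT MEFs and 80.9 and 58.9 to 95.4 TPM in PERK −/− MEFs.

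**Figure D3:**
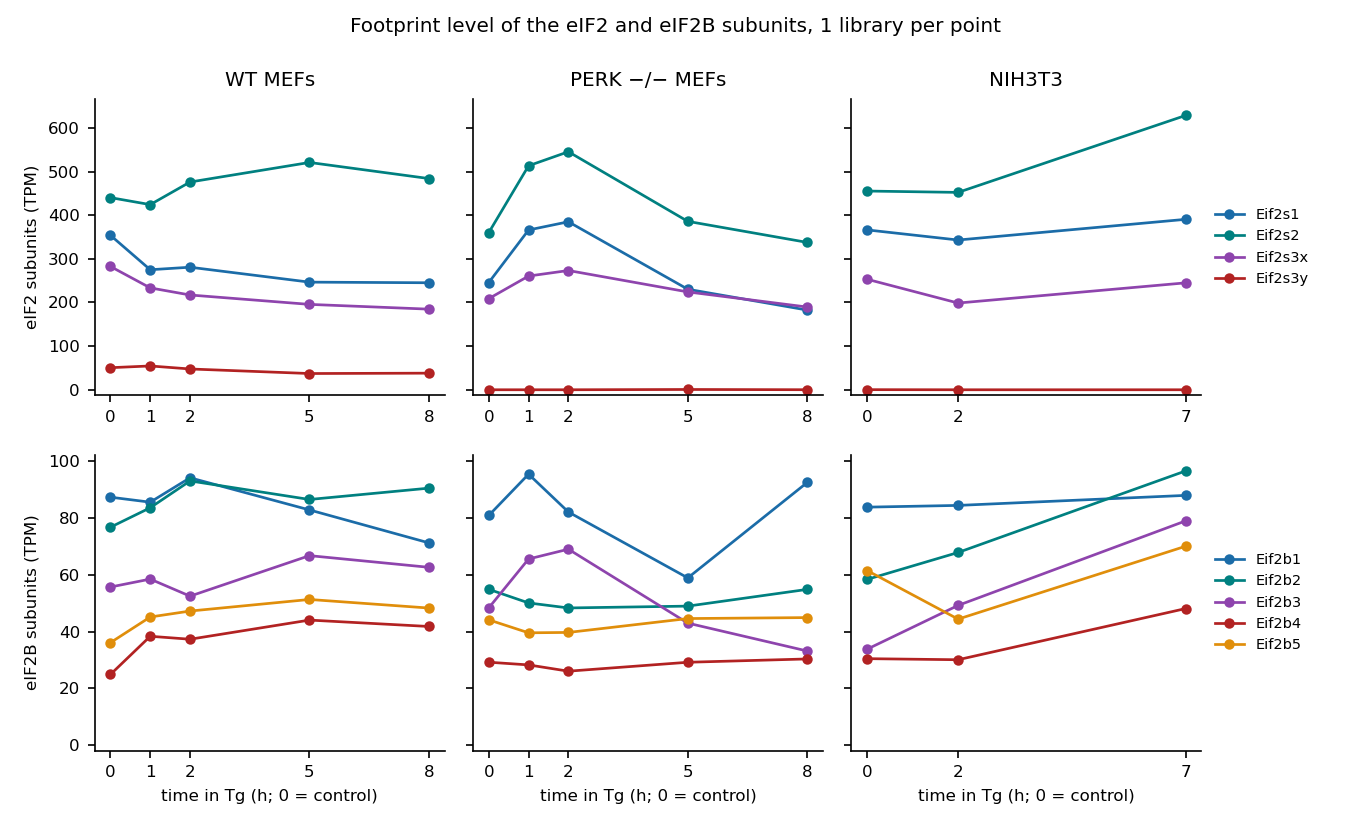
TPM (y axis) of the eIF2 subunits (upper row) and the eIF2B subunits (lower row) by time in Tg (x axis, h, 0 is the control), with 1 library per point. Eif2s1 went from 354 to 245 TPM in WT MEFs and from 246 through 385 to 183 TPM in PERK −/− MEFs, Eif2s3y was above 0.65 TPM in WT MEFs only, and Eif2b4 and Eif2b5 lay above their control at every Tg time in WT MEFs.

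The level of the PERK substrate relative to its exchange factor was followed as the TPM of Eif2s1 over the mean TPM of the 5 eIF2B subunits. WT MEFs had a ratio of 6.30 without Tg, then of 4.42, 4.33, 3.72 and 3.90 after 1, 2, 5 and 8 h. PERK −/− MEFs went from 4.77 to 6.56, 7.25, 5.12 and 3.57 over these times. NIH3T3 cells had 6.83, 6.21 and 5.12 at 0, 2 and 7 h. The ratio was thus lower than the control with Tg in all libraries of WT MEFs and NIH3T3 cells, and higher at 1, 2 and 5 h in PERK −/− MEFs. For Eif2s1 over Eif2b5 alone the log2 change of the count ratio was −0.95 at 8 h in WT MEFs (95% counting interval −1.09 to −0.81) and 0.80 at 2 h in PERK −/− MEFs (0.64 to 0.96). At 5 h in PERK −/− MEFs and at 2 h in NIH3T3 cells this ratio went the other way than that over the mean of eIF2B, with −0.11 (−0.29 to 0.07) and 0.38 (0.17 to 0.58). These ratios hold any trend on GC content. With it removed, Eif2s1 was at −0.16 and Eif2b5 at 0.33 at 8 h in WT MEFs. The values were 0.45 and 0.02 at 2 h in PERK −/− MEFs.

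eIF3, the scaffold that holds the small subunit and the other initiation factors together, kept its median within 0.07 of 0 in WT MEFs, on either side of 0 depending on the scaling, and its subunits went apart. Eif3c, a core subunit, was at 260.1, 285, 367, 461 and 494 TPM from control to 8 h, and Eif3d, which can bind some mRNA caps by itself, at 192, 226, 285, 268 and 265 TPM. Their log2 change at 8 h was 0.92 (0.89 to 0.96) and 0.47 (0.41 to 0.53). Eif3h, which had the highest mean level of the group, stayed at 411 to 430.2 TPM in all WT libraries. Eif3a, the largest subunit, was at 325 TPM in the control and 280.3 to 294 TPM with Tg, and Eif3e at 463, 436, 392, 366 and 329.7 TPM, although the sign of Eif3e at 1, 2 and 5 h turned with the trend on GC content removed. In PERK −/− MEFs Eif3c stayed at 305 to 339 TPM, while Eif3e went from 387 to 579 and 554 TPM at 1 and 2 h and Eif3m from 137 to 206 and 247 TPM. Of the 12 subunits other than eIF3j, 11 were above 0 at 1 h and 11 at 2 h in PERK −/− MEFs (35.8% and 32.7% of all genes). In WT MEFs 6 and 6 were (46.5% and 48.6% of all genes).

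Eif3j encodes a loosely bound subunit and has 2 copies in mouse, Eif3j1 on chromosome 2 (122028580 to 122053632) and Eif3j2 on chromosome 18 (43475418 to 43477836). All stretches of 30 nt of the clipped coding sequence of either copy occurred in the other (100%), so that a footprint of this length fits both. RSEM put the reads on 1 copy or divided them. Eif3j2 was listed at 0 in 8 of 13 libraries, at 13.4 and 63.6 TPM at 8 and 2 h in WT MEFs, at 36.3 and 178 TPM at 2 and 5 h in PERK −/− MEFs and at 42.7 TPM at 2 h in NIH3T3 cells, and Eif3j1 was at 0 at 5 h in PERK −/− MEFs. The 2-fold calls of single copies in these libraries therefore say nothing about either gene, and only the sum was read.

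The summed eIF3j level was 377 TPM in untreated WT MEFs and 227, 184, 163 and 152 TPM at 1, 2, 5 and 8 h. It fell at least 2-fold at 2, 5 and 8 h (as did 4.01%, 3.55% and 3.87% of all genes), by 1.03, 1.21 and 1.31 on the log2 scale, with an interval of −1.40 to −1.22 at 8 h. At 5 h, when all its reads were on Eif3j1, the change was −0.95 with the trend on GC content removed. The sum in PERK −/− MEFs was 273 (control), 293, 340, 178 and 176 TPM, and the last pair is −0.62 and −0.63 on the log2 scale. NIH3T3 cells had 153, 149.6 and 189.9 TPM. eIF3j had the lowest 8 h change of all eIF3 subunits in WT MEFs.

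**Figure D4:**
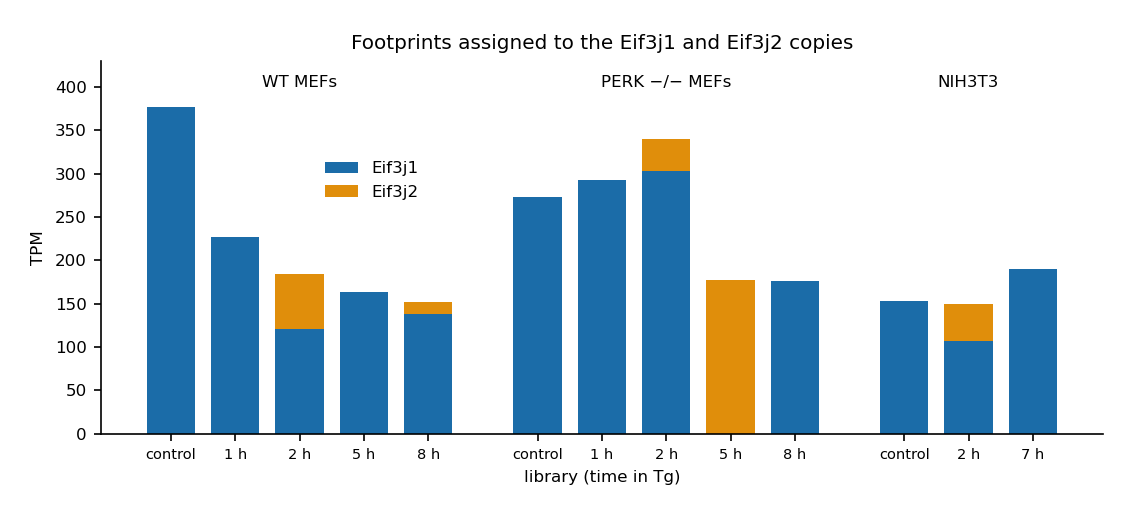
TPM assigned to Eif3j1 (blue) and Eif3j2 (orange) in each of the 13 libraries (stacked bars, x axis by culture and time in Tg). The split between the copies changed from library to library, whereas the height of the bars, their sum, went from 377 to 152 TPM in WT MEFs.

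Among the eIF4 factors, which bind the cap and unwind the mRNA, Eif4e and Eif4a2 stood out. The cap-binding protein Eif4e was at 542, 419.5, 342, 282 and 274 TPM from control to 8 h in WT MEFs, a log2 change of −0.98 at 8 h on TPM, just short of 2-fold. The counts per library total gave −1.06 (−1.14 to −0.98), and removal of the trend on GC content gave −0.70, under 2-fold. PERK −/− MEFs had 503 (control), 626, 639, 408 and 334 TPM of Eif4e. NIH3T3 cells started lower, at 239 TPM, and had 200.02 and 242 TPM with Tg.

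Eif4ebp1, which binds and blocks Eif4e and was outside the symbol rule, went the other way in WT MEFs, with 122, 125, 387, 533 and 559 TPM, up 2.12 and 2.19 on the log2 scale at 5 and 8 h. The ratio of Eif4ebp1 to Eif4e was 0.226 in the control of WT MEFs and 2.04 at 8 h, and 0.219 and 0.518 in PERK −/− MEFs. NIH3T3 cells had 2.75 (control), 2.44 (2 h) and 2.60 (7 h), and were without Tg already above the 8 h value of WT MEFs.

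The helicase paralogs Eif4a1 and Eif4a2 behaved differently. Eif4a1 stayed at 1561 to 2206 TPM in WT MEFs and 1632 to 2399 TPM in PERK −/− MEFs. Eif4a2, the weaker expressed paralog, had 132 (control), 218, 201, 142 and 150.5 TPM in WT MEFs. It rose most in NIH3T3 cells, from 178 TPM in the control to 578 TPM at 2 h (5.76% of all genes rose at least 2-fold there), with 254 TPM at 7 h. Its change at 2 h was 1.70 on the log2 scale, with an interval of 1.73 to 1.90 for counts per library total. PERK −/− MEFs stayed at 77.4 to 116 TPM of Eif4a2, against 96.3 TPM in the control. The scaffold Eif4g1 was lower with Tg in WT MEFs (266 TPM to 197 at 5 h) and in NIH3T3 cells (127 TPM to 80.4 at 2 h and 80.6 at 7 h). PERK −/− MEFs had 211 (control), 210.5, 186, 172 and 198 TPM of Eif4g1, and the signs at 1 and 2 h turned with the trend on GC content removed. Its relative Eif4g2, which lacks the site for Eif4e, had 161 to 179.7 TPM in WT MEFs and 372, 240.4 and 299 TPM in NIH3T3 cells. Eif4g3 was weak, at 3.51 to 16.9 TPM in MEFs, and its changes in TPM and in counts differed, so no direction was read.

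Eif1 and Eif1ax, which keep the ribosome scanning until it meets the start codon, were the called ones among the remaining initiation factors in WT MEFs. Eif1 had 1643 (control), 677, 937, 1166 and 1133 TPM through the course in WT MEFs. The lowest value was thus at 1 h, by −1.28 on the log2 scale (−1.38 to −1.15), where 2.29% of all genes fell at least 2-fold. In PERK −/− MEFs Eif1 was at 1286 TPM in the control and 1312, 1639.7, 1079 and 1157 TPM with Tg, and in NIH3T3 cells at 1543, 1420.4 and 1648 TPM. Eif1b, its weak paralog, was at 29.4 to 37.9 TPM in WT MEFs. PERK −/− MEFs had 32.7 (control), 43.4, 43.4, 6.69 and 36.2 TPM of Eif1b, and the 5 h value, the only one past 2-fold (4.77% of all genes fell so far), rested on 15 counts.

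Eif1ax, the X-linked gene of eIF1A, had 430.4 (control), 277, 213, 200.4 and 203 TPM in WT MEFs, and it fell at least 2-fold from 2 h on (log2 change −1.01, −1.10 and −1.08). With the trend on GC content removed these were −0.75, −0.74 and −0.67, under 2-fold, and the 2 h value also just missed it with counts thinned to the smallest library. PERK −/− MEFs had 538 TPM, then 640.1, 782, 477 and 405 TPM, and NIH3T3 cells 476, 361 and 484 TPM. Its autosomal paralog Eif1a had 289 TPM in the control and 213 TPM at 1 h in WT MEFs, and 269.8 to 279.7 TPM later. Eif1a shares 23.2% of its stretches of 30 nt with other genes, so its level is less certain. Eif1ad, a protein with an eIF1A domain, fell at least 2-fold at 8 h in PERK −/− MEFs, from 30.8 to 14.2 TPM, on 95 and 48 counts, as did 2.73% of all genes.

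Eif5b, which joins the ribosomal subunits, was at 115 TPM in the control and 88.2, 74.5, 71.4 and 66.6 TPM with Tg in WT MEFs (−0.78 at 8 h, −0.85 to −0.71, and −0.45 with the trend on GC content removed), and at 86.6, 93.8, 108, 69.3 and 58.4 TPM in PERK −/− MEFs. Eif6, which keeps free large subunits from joining, was higher with Tg in WT MEFs, at 186 TPM in the control and 281, 283, 313 and 302 TPM with Tg. Its log2 change was 0.60 to 0.75 there, and 0.42 to 0.52 with the trend on GC content removed. In PERK −/− MEFs it was at 209 TPM and then 177, 175, 222 and 194 TPM, and the difference between the genotypes was not tested. NIH3T3 cells had 191, 201 and 301 TPM. Eif5, which stimulates GTP hydrolysis on eIF2, was at 214 to 229 TPM in all WT MEF libraries, and Eif5a at 2811 TPM in the control and 1988 to 2371 TPM with Tg.

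Eif5a2, the minor paralog of Eif5a, changed in no shared direction. It was at 27.2, 53.5, 20.6, 18.3 and 17.4 TPM in WT MEFs, 29.9, 16.5, 19.0, 37.5 and 18.9 TPM in PERK −/− MEFs and 1.74, 6.79 and 15.8 TPM in NIH3T3 cells. The call in NIH3T3 cells rested on 11 counts in the control and 50 at 7 h.

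**Figure D5:**
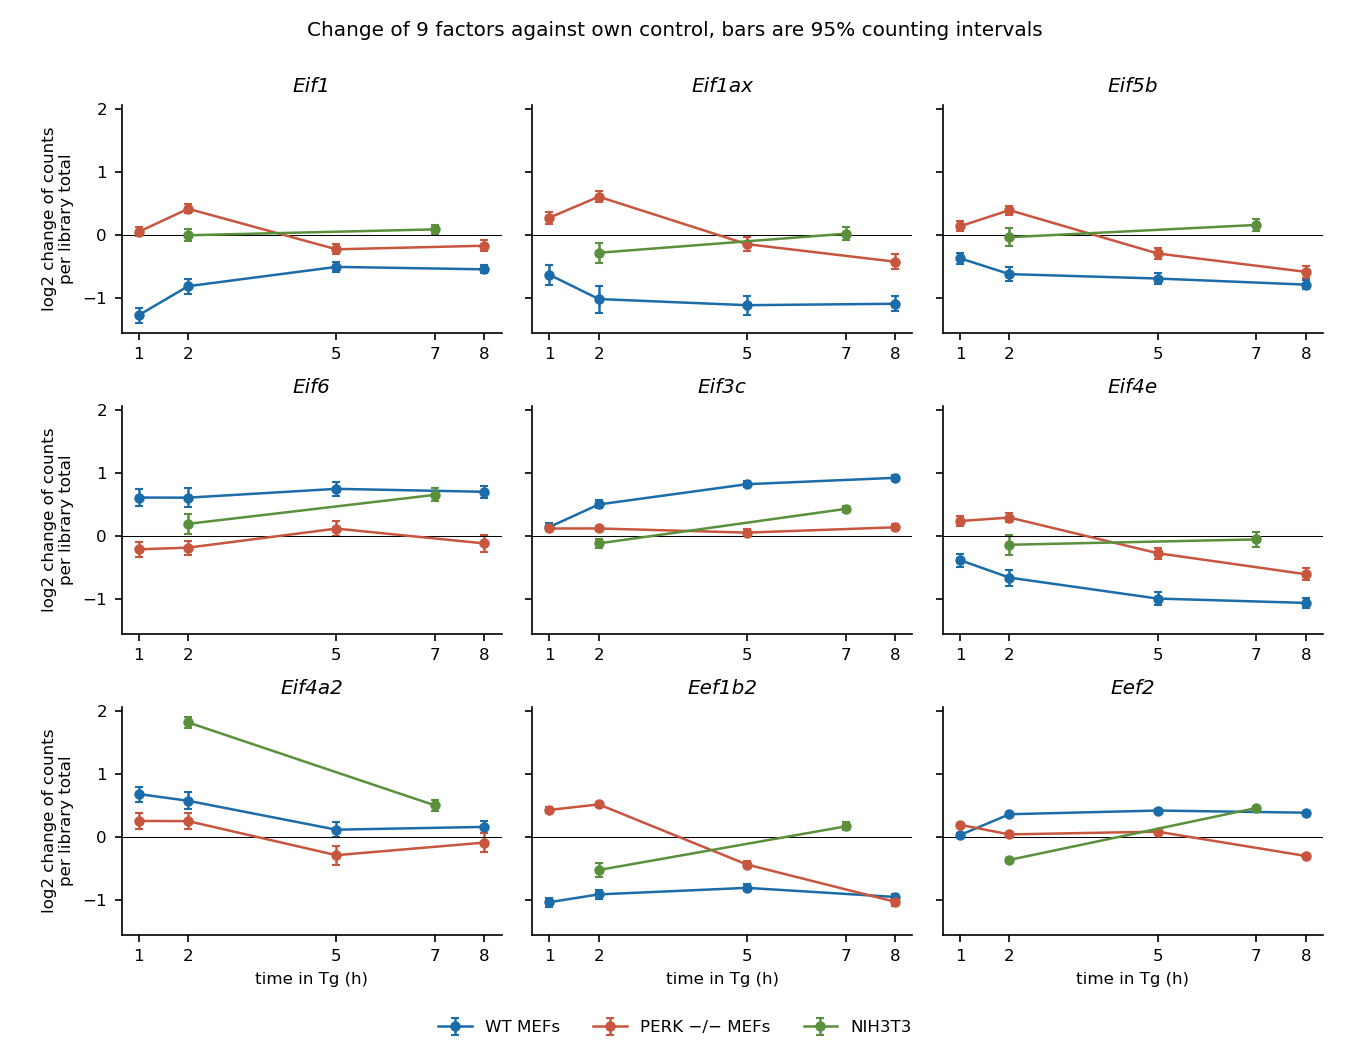
Log2 change of counts per library total against the own control (y axis) by time in Tg (x axis, h) for 9 factors in WT MEFs (blue), PERK −/− MEFs (red) and NIH3T3 cells (green), with bars for the 95% counting interval, which leaves out any spread between replicates. Eif1 was lowest at 1 h in WT MEFs (−1.26), Eef1b2 was below 0 at all times in WT MEFs and past 2-fold at 8 h in PERK −/− MEFs, and Eif3c and Eif6 were high in WT MEFs.

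The elongation factors were lower with Tg in WT MEFs apart from Eef2. Eef1b2, which reloads eEF1A with GTP, was at 1743 TPM in the control and 843, 924, 999 and 902 TPM with Tg, and it fell at least 2-fold at 1 h (log2 change −1.05, interval −1.10 to −0.96, and −0.96 with the trend on GC content removed). PERK −/− MEFs had 1266 (control), 1670.3, 1721, 914 and 625 TPM of Eef1b2, which fell at least 2-fold there at 8 h only (−1.02, −1.09 to −0.96), and just missed it with counts thinned to the smallest library. NIH3T3 cells had 684, 438 and 768 TPM. The other subunits of the exchange complex were lower by less in WT MEFs, with Eef1g at 1126 TPM in the control and 793 to 927 TPM with Tg and Eef1d at 661 TPM and 502 to 618 TPM. Eef1a1 was at 12067, 11847, 11163, 10955 and 10542 TPM in WT MEFs and at 10526, 12274, 11464, 9819 and 7944 TPM in PERK −/− MEFs, a change of −0.19 and −0.41 at 8 h.

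Eef2, the translocase, was at 1299 and 1315 TPM in the control and at 1 h of WT MEFs and at 1662, 1740.4 and 1696 TPM at 2, 5 and 8 h. The log2 change of these later values was 0.35, 0.42 and 0.38, and 0.16, 0.18 and 0.10 with the trend on GC content removed. PERK −/− MEFs had 1051 (control), 1176, 1026, 1088 and 858 TPM of Eef2. The ratio of Eef2 to Eef1a1 was 0.108 in untreated WT MEFs and 0.161 at 8 h, and 0.0999 and 0.108 in PERK −/− MEFs. NIH3T3 cells gave 0.204 (control), 0.148 (2 h) and 0.222 (7 h). In PERK −/− MEFs all 5 elongation factors were above 0 at 1 h (35.8% of all genes). At 2 h 3 of 5 were (32.7%), while in counts per library total all 5 were, as Eef2 and Eef1g were below 0 on TPM only. At 5 h, 2 were above and 3 below 0 (44.8% and 48.3% of all genes), and at 8 h all 5 were below (40.1%).

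The 2 methyltransferases of elongation factors were weak. Eef1akmt1 was at 33.0 to 45.8 TPM in WT MEFs and 51.0 to 70.1 TPM in PERK −/− MEFs. Eef2kmt was at 6.98 TPM in the control and 8.83, 10.3, 12.7 and 12.5 TPM with Tg in WT MEFs, on 26 to 139 counts. In NIH3T3 cells it fell at least 2-fold at 7 h (8.06% of all genes did), from 13.9 to 4.17 TPM, on 167 and 26 counts.

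Genes whose mRNAs are textbook members of the TOP class, which carry a pyrimidine tract at the 5′ end, make up 10 of the factors (the 5 elongation factors, Eif3a, Eif3e, Eif3f, Eif3h and Eif4b). In WT MEFs 8 of the 10 were below 0 at each time (44.7%, 42.7%, 41.4% and 41.1% of all genes), with a median of −0.06, −0.13, −0.17 and −0.21 at 1, 2, 5 and 8 h (all genes 0, 0, 0.00 and 0.01). In PERK −/− MEFs all 10 were above 0 at 1 h (median 0.17, 35.8% of all genes above 0). At 2 h 8 were (median 0.20, 32.7%), while in counts per library total all 10 were. At 5 h, 4 were above and 6 below 0 (44.8% and 48.3% of all genes), and at 8 h all 10 were below (median −0.40, 40.1%). In NIH3T3 cells 9 of 10 were above 0 at 7 h (median 0.37, 44.0% of all genes), and the sign of their median at 2 h turned with the scaling.

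33 further genes of translation that the symbol rule left out were listed in 6 sets. In WT MEFs at 8 h, 5 of them rose and 4 fell at least 2-fold (6.45% and 3.87% of all genes), and in PERK −/− MEFs none did at 8 h (3.28% and 2.73%). At 1, 2 and 5 h, 1, 2 and 4 rose and 2, 5 and 4 fell in WT MEFs. Of the 10432 expressed genes, 452, 590 and 611 rose and 239, 418 and 370 fell there. PERK −/− MEFs had 0, 1 and 3 up and 2, 3 and 1 down at these times. Among all expressed genes these were 75, 65 and 340 up and 353, 603 and 498 down. The phosphatase subunit Ppp1r15a, which leads the dephosphorylation of eIF2α, went from 7.01 TPM to between 98.1 and 117 TPM with Tg in WT MEFs and stayed at 4.09 to 6.44 TPM in all libraries of PERK −/− MEFs. Eef2k, the kinase that inhibits eEF2, was at 8.14 TPM in untreated WT MEFs and 19.4 TPM at 8 h. It also passed 2-fold in PERK −/− MEFs at 5 h, with 18.3 TPM against 8.78 in the control, and in NIH3T3 cells at 7 h, with 21.9 against 9.86 TPM. The poly(A)-binding protein Pabpc1 was at 548 TPM in untreated WT MEFs and 169 to 268 TPM with Tg. PERK −/− MEFs had 385 (control), 491, 419.5, 283 and 217 TPM of Pabpc1, a log2 change of −0.83 at 8 h. All 5 genes of its list were below 0 at 1 h and at 8 h in WT MEFs (44.7% and 41.1% of all genes). In PERK −/− MEFs 4 of 5 were above 0 at 1 h (35.8% of all genes). Denr, which acts in reinitiation, went from 538 to 177 TPM at 8 h in WT MEFs. It was at 211 TPM in untreated PERK −/− MEFs and at 422 TPM at 2 h. All 6 genes of the scanning, reinitiation and recycling list were above 0 at 1 and 2 h there (35.8% and 32.7% of all genes).

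In NIH3T3 cells, which had less Tg and other times, the values stand beside those of MEFs without a comparison. The median of the 51 factors was −0.13 at 2 h, the same as that of all genes (−0.13) and 0.03 with TMM scaling of the counts, and 0.17 at 7 h against 0 for all genes, with 37 of 51 above 0 (44.0% of all genes). The eIF2B median was 0.66 at 7 h, with all 5 subunits above 0, and that of eIF3 without eIF3j 0.34, with 11 of 12 above 0. Eif3a, Eif3d and Eif2b2 were the highest of these after Eif2b3, at 0.74, 0.93 and 0.73 on the log2 scale.

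Without Tg the cultures already differed. Against untreated WT MEFs, untreated PERK −/− MEFs had a median log2 difference of −0.19 over the 52 factors other than eIF3j (all genes 0.08). 3 of these were at least 2-fold lower (1.97% of all genes), Eif2s3y, Eif4e3 (9.25 against 3.09 TPM) and Eif4g3 (11.1 against 3.83 TPM). The eIF2 subunits Eif2s1, Eif2s2 and Eif2s3x were lower by 0.53, 0.29 and 0.44 on the log2 scale there. Untreated NIH3T3 cells, taken from a separate table made by the same steps, had 1 factor at least 2-fold higher than WT MEFs, Eif4g2 (372 against 161 TPM, 13.4% of all genes), and 10 lower (10.8%). Among the latter were Eif5 (38.2 against 229 TPM), Eef1b2 (684 against 1743 TPM), Eif5b (45.4 against 115 TPM) and Eif4e (239 against 542 TPM). Factors and genes were here picked by their mean in MEFs alone, so that any expressed only in NIH3T3 cells could not enter. Eif2s3y, Eif4e3 and Eif4g3, which are among the 10, did not count as expressed in NIH3T3 cells.

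The coding sequences of the 54 factors had a median length of 1170 nt and a median GC content of 50.6%, against 1365 nt and 52.8% for all expressed genes, and eIF2 was lowest at 42.5%. Over the 52 factors without eIF3j, which share libraries and a common control, the change at 8 h in WT MEFs ran with GC content (Spearman rho 0.52) and that at 2 h in PERK −/− MEFs against it (rho −0.56). With the trend on GC removed over all genes, the median of the factors was 0.22 at 1 h and 0.29 at 2 h in PERK −/− MEFs, in place of 0.15 and 0.20. A promoter window of 300 nt from RefSeq (GRCm38.p6) held the ATF4 and CHOP composite motif TGATGNAAN on either strand for 1 of the 42 factors with an entry, Eif2s3x, and for 4.50% of 27025 genes. The match describes letters in this window and not a site.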

How the data were processed

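Ribosome footprint profiling of 13 libraries was analysed, 1 for each condition. Per the study's methods, footprints of 22 to 34 nt were kept, reads of ribosomal and transfer RNA were removed with STAR, and Bowtie2 aligned the rest to the coding sequences of mm10 RefSeq transcripts of at least 100 nt, less 30 nt at both ends. The authors deposited RSEM expected counts and TPM per gene, in 1 table each for MEFs and NIH3T3 cells. Versions of these tools are not given in the sources used here.

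TPM values under 4 were raised to 4, and log2 changes were taken against the own control over genes with a mean of at least 2 TPM. 95% intervals are exact conditional intervals of the ratio of expected counts, rounded to whole numbers, per library total, and shares have exact binomial (Clopper-Pearson) intervals. Both cover counting error only, and with 1 library per condition no test was made. The scripts were tested on simulated data. Alternatives were floors, filters, pseudocounts, 1.5-fold, TMM (edgeR 4.0.16, R 4.3.3) and DESeq2 1.42.0 size factors, thinning, and removal of a lowess trend on GC content (statsmodels 0.14.6, fraction 0.3). 0.5 was added to counts in these. Python 3.11.15, pandas 2.3.3, numpy 2.4.6 and scipy 1.17.1 were used.

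The members and lists were chosen with earlier results of these data known. Named by rule were all eIF2 and eIF2B genes, the highest member of every other group, members changed at least 2-fold on at least 100 counts, those with the largest change at 8 h in WT MEFs, and pairs of paralogs. Eif3c, Eif3d, Eif3e, Eif3m, Eif3a, Eif4g1, Eif4g2, Eif4g3, Eif5, Eif5b, Eif6, Eif1ad, Eef2, Eef1d and Eef1g, and the genes outside the symbol rule, were named after their values were seen.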

Additional observations from a re-analysis of the deposited data

Results flagged for a closer look

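Eif2b2, the β subunit of eIF2B, was the only factor above its control at all 4 Tg times in WT MEFs and below it at all 4 in PERK −/− MEFs. At 8 h in PERK −/− MEFs it was all but level with the control, at 54.88 against 54.91 TPM (log2 change −0.0008), and the flag rests on this sign. The lowest change in WT MEFs minus the highest in PERK −/− MEFs was 0.124 on the log2 scale. The difference was not tested, since each condition had 1 library, and the signs at 5 and 8 h in WT MEFs and at 1 and 2 h in PERK −/− MEFs turned under at least 1 other setting.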

How the results depend on the processing

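No paired analysis was possible because every condition had 1 library and the labels give no replicate numbers. Of 149 recomputed medians and counts of called factors, 130 stayed within the allowed range, 17 moved and 2 reversed. For a median this range came from the spread between factors, and for a count it was a fixed fold band. Neither holds the spread between replicates, so the number that stayed was not read as a sign of robustness. The median in WT MEFs at 8 h, for example, counted as having stayed at −0.07 and, with TMM, −0.18. The median of the factors in PERK −/− MEFs moved from 0.15 to 0.27 (TMM) and 0.26 (DESeq2 size factors) at 1 h, from 0.20 to 0.37 and 0.38 at 2 h, and from −0.11 to −0.21, −0.21 and, with the GC trend removed, −0.18 at 8 h. In NIH3T3 cells at 2 h it reversed from −0.13 to 0.032 (TMM) and 0.048 (DESeq2), and was −0.012 per library total. These scalings put the median of all genes at −0.01 in place of −0.11 (PERK −/− MEFs, 2 h) and −0.13 (NIH3T3 cells, 2 h, TMM). The 5 called factors in WT MEFs became 1 without the pairs of paralogs and 16 at 1.5-fold. Only the eIF3j copies among these pairs share all stretches of 30 nt, while Eif1 shares 0% with other genes and Eif1ax 0.875%. The 5 in PERK −/− MEFs became 2 without the pairs of paralogs, 14 at 1.5-fold, 3 with the eIF3j copies summed and 3 without the 5 h library, the last 2 settings being chosen after seeing the data. The 5 in NIH3T3 cells became 2 without the pairs of paralogs, 17 at 1.5-fold and, chosen after seeing the data, 3 without the 2 h library. The causes were not tested. Of the values of the factors named by rule, 2442 stayed as near the reported value as their counting interval allowed, 358 moved and no called one reversed. Where a count of 0 left that interval open, as for Eif3j2, a value could not be listed as moved. Factors named after their values were seen, such as Eif3e and Eif4g1, are not in these totals. Depth limited Eif4e3, Eif1b, Eif1ad, Eif5a2, Eef2kmt, Eif2d, Eef1akmt1 and Eif4enif1, which had under 100 counts in at least 1 library.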

Other observations

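Tpt1, which encodes a partner of elongation factors and is itself translated from a TOP mRNA, was outside the symbol rule. It was at 2087 TPM in untreated WT MEFs and 916, 978, 1099 and 1069 TPM with Tg, and at 1467 TPM in untreated PERK −/− MEFs and 2046, 2336, 1355 and 1086 TPM with Tg. Mcts1, which acts with Denr in reinitiation, was at 41.3 TPM in untreated WT MEFs and 24.0 to 28.7 TPM with Tg, and at 33.4 TPM in untreated PERK −/− MEFs and 48.0 to 65.2 TPM with Tg. The peptide release factor Etf1 was at 276 TPM and 169 to 188 TPM in WT MEFs. In PERK −/− MEFs it was at 226 TPM, then at 290.2 and 313 TPM at 1 and 2 h and at 183 and 185 TPM at 5 and 8 h. These genes were chosen after their values were seen.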
